A study of Sus scrofa with 6 samples.

Results

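The 10 genes described here make, carry, cross-link or bind hyaluronan, or encode a chondroitin sulfate proteoglycan of the vessel wall, and they were chosen by name from the 30477 genes of the deposited table. They are the hyaluronan synthases HAS1, HAS2 and HAS3, the aggregating proteoglycans versican (VCAN) and aggrecan (ACAN), the link proteins HAPLN1 and HAPLN3, the hyaladherin TNFAIP6, the hyaluronan receptor CD44 and the membrane proteoglycan CSPG4. RNA was taken from the abdominal aorta of male Wuzhishan pigs, a miniature breed. The NC group (3 pigs) ate normal chow for 6 months, and the HFCF group (3 pigs) ate for 6 months a diet high in fat, cholesterol and fructose, made by mixing chow with shortening, egg yolk powder, cholesterol and fructose. No transgene, mutation or drug is given for either group, and 1 library was made per pig from a subset of the pigs on each diet. The labels give an age of 3 to 4 months, whereas the methods give an older age for the pigs when they were acquired.

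Hyaluronan is a long unbranched sugar polymer that synthases in the plasma membrane extrude directly into the matrix. Versican and aggrecan bind it through their N-terminal domain, link proteins lock the complex, and the chondroitin sulfate chains of the core proteins hold water. In arteries versican is the usual large proteoglycan and is known for retaining lipoproteins in the intima, whereas aggrecan is best known from cartilage. CD44 ties the polymer to the cell surface, and TNFAIP6 (TSG-6) transfers protein chains onto it during inflammation.

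Levels are given as FPKM, fragments per kilobase of exon scaled to the mapped reads of the library, which is per length and so allows genes of 1 library to be set side by side. The depth of the libraries is not given in the sources used here. Relative depths were read from the most frequent ratio of low values (under 0.3 FPKM) of single-transcript genes between the first NC pig and each other pig. With the first NC pig set to 1, they were 1 to 1.369 in the NC pigs and 1.025 to 1.066 in the HFCF pigs. The summed FPKM was 272207 to 287141 in the NC pigs and 330222 to 338690 in the HFCF pigs, and 39.93% to 43.92% of genes were listed at 0. Contractile smooth muscle markers, which mark the aortic media, were abundant in every library (ACTA2, smooth muscle actin, 3359 to 9145 FPKM). The 12 macrophage markers all rose and summed to 58.8 to 70.6 FPKM in the NC pigs and 815 to 2071 FPKM in the HFCF pigs, and 7 of 10 contractile smooth muscle markers fell, from sums of 16469 to 23887 FPKM to sums of 8384 to 13306 FPKM. The first HFCF pig stood apart, with the highest macrophage sum and 2846 FPKM of HBB, a haemoglobin chain, against at most 174.5 FPKM in the other libraries. In bulk tissue, fewer cells of a type and less RNA per cell cannot be told apart.

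Groups were compared with limma on log2(FPKM + 0.1), with Benjamini-Hochberg adjustment over the 15384 genes whose mean reached 0.1 FPKM, and a gene is called here at an adjusted p under 0.05. The added 0.1 makes fold changes of weakly expressed genes look smaller than they are. Of all tested genes, 28.9% were called, 22.8% as higher and 6.16% as lower in the HFCF group. After median-ratio scaling these were 2032 genes higher and 1968 lower, against 3505 and 948 on the deposited scale. Over all tested genes the log2 fold change had a median of 0.32 on the deposited scale and 0.00 after median-ratio scaling. Of the 10 genes, 2 were called higher (VCAN and HAPLN1), 2 were called lower (HAS1 and CSPG4) and 6 were not called. All 10 passed the filter, but HAS3 passed it only through the HFCF pigs and HAS1 only through the NC pigs. For 1 gene in 6 pigs, the smallest p that an exact two-sided permutation test allows is 0.1. The labels give neither litter nor day, so balance in these could not be checked. Each p-value from limma sets the group difference against a variance estimated from these 6 pigs and moderated across genes.

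Among the proteoglycans that bind hyaluronan, versican rose and became the more abundant of the pair, and aggrecan, the more abundant in the NC pigs, did not pass the test. VCAN was at 1.94, 1.81 and 2.53 FPKM in the NC pigs and at 12.7, 10.7 and 7.23 FPKM in the HFCF pigs. Every HFCF pig lay above every NC pig, and the lowest HFCF value was in the third pig. The group means were 2.09 ± 0.388 FPKM in NC and 10.2 ± 2.78 FPKM in HFCF (SD, n = 3 each), a ratio of 4.88. The log2 fold change was 2.21 with a standard error of 0.26 and a 95% interval of 1.60 to 2.82, and the adjusted p from limma was 0.00217. VCAN kept its call in 15 of 15 alternatives, with log2 fold changes of 1.80 to 2.44, and without the first HFCF pig it was 2.03. The row named VCAN, ENSSSCG00000014136, carries the description of XRCC4, a DNA repair gene next to VCAN in the RefSeq annotation, and 0 rows are named XRCC4, so its value may include XRCC4 transcripts.

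ACAN (ENSSSCG00000001832) was at 9.23, 2.70 and 3.75 FPKM in the NC pigs and at 1.13, 3.14 and 1.75 FPKM in the HFCF pigs. The groups overlapped, since the second HFCF pig lay above the second NC pig, and the first NC pig was far above all others. The means were 5.23 ± 3.51 FPKM in NC and 2.01 ± 1.03 FPKM in HFCF (SD, n = 3 each). Its log2 fold change was -1.25 with a 95% interval of -2.49 to -0.02 and an adjusted p of 0.113 in limma. ACAN was called in 0 of 15 alternatives. Its ratio of 0.385 and unadjusted p of 0.0473 in limma did pass the fold and p limits of the study. The study named no test for its p, so its own gene list need not match the limma results. Those limits were passed by 4.82% of tested genes as lower and by 20.7% as higher. By the same limits 3 of the 10 genes were lower (HAS1, CSPG4 and ACAN) and 2 higher. HAS1 passed the filter only through the NC pigs, so the count of 3 rests in part on that filter.

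Set against each other within each library, ACAN made up 82.6%, 59.9% and 59.6% of the summed FPKM of VCAN and ACAN in the NC pigs against 8.17%, 22.7% and 19.5% in the HFCF group. The mean share was 67.4 ± 13.2% in NC and 16.8 ± 7.64% in HFCF (SD, n = 3 each), and the ranges were separate. This share does not depend on how a library is scaled. It changes with either gene, and the VCAN value carries the limit given above. ACAN overlaps HAPLN3 in the RefSeq annotation, and strand use in the counting is not given, so the ACAN value may include HAPLN3 reads. The summed FPKM of VCAN and ACAN overlapped between the groups, at 11.2, 4.51 and 6.28 in the NC pigs and at 13.9, 13.8 and 8.99 in the HFCF group. In the order of mean level among the 10 genes, ACAN took the third place in NC and the sixth in HFCF, while VCAN moved from the fifth place to the third.

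Markers of cartilage were given beside aggrecan, since it is a defining cartilage gene. Of 15 cartilage markers in the table, 8 were tested, and 0 were called higher and 1 lower (SOX6, a transcription factor of chondrocytes). Among all tested genes the shares were 22.8% and 6.16%. COL10A1, MATN1 and EPYC were listed at 0 in all 6 libraries, and COL2A1, the main cartilage collagen, did not exceed 0.141 FPKM. The summed FPKM of the 15 was 19.4 to 42.6 in the NC pigs and 12 to 164.5 in the HFCF pigs. In the third HFCF pig, the highest, 146 FPKM of this sum came from COMP, a matrix protein that smooth muscle also makes.

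**Figure D1:**
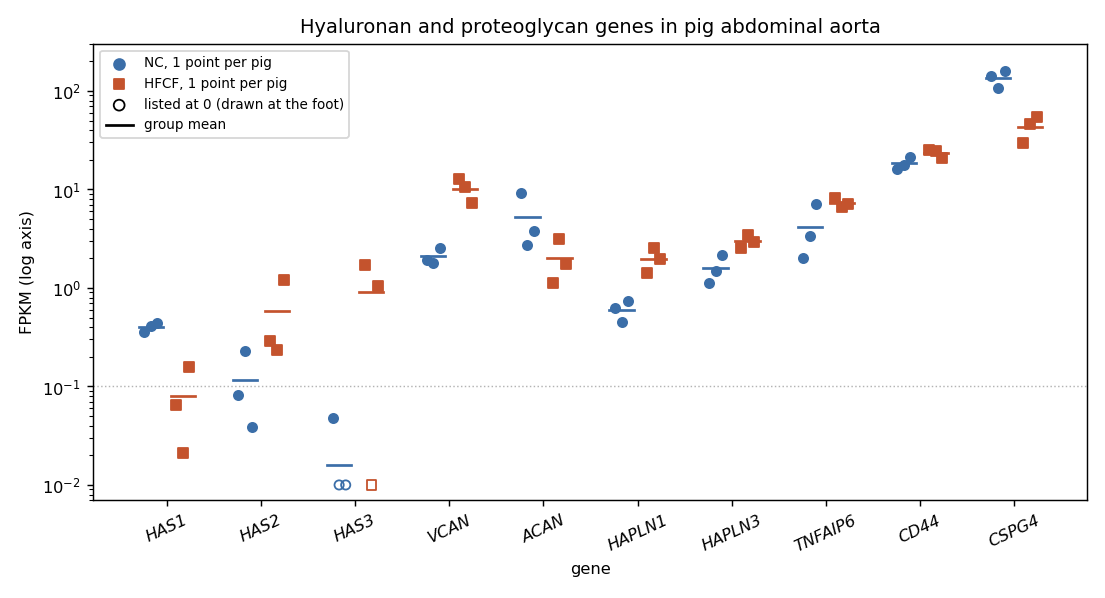
FPKM of the 10 genes on a log axis, with 1 point per pig for the NC group (circles) and the HFCF group (squares), a bar at each group mean, open symbols at the foot for values listed at 0 and a dotted line at the filter of 0.1 FPKM. The groups are separate and higher in HFCF for VCAN, HAPLN1, HAPLN3 and, narrowly, HAS2, separate and lower in HFCF for HAS1 and CSPG4, and overlap for HAS3, ACAN, TNFAIP6 and CD44.

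The 3 hyaluronan synthases had the lowest mean levels of the 10 genes on either diet, and the synthase that led differed between the diets. HAS1 was at 0.360, 0.407 and 0.441 FPKM in the NC pigs and at 0.0641, 0.0210 and 0.157 FPKM in the HFCF pigs. Every HFCF pig lay below every NC pig. The means were 0.403 ± 0.0404 FPKM in NC and 0.0807 ± 0.0695 FPKM in HFCF (SD, n = 3 each), a 4.99-fold higher mean in NC. HAS1 (ENSSSCG00000003239) fell, with a log2 fold change of -1.54, a standard error of 0.40, a 95% interval of -2.49 to -0.60 and an adjusted p of 0.0283 in limma. Its HFCF mean was under the filter of 0.1 FPKM, so HAS1 was tested only through the NC pigs, in which it was high. The call carries that limit. Of the 14 alternatives in which HAS1 was tested, 8 kept the call, and it was lost without any 1 of the 3 NC pigs (adjusted p in limma 0.0762 to 0.0852) and without the first or the second HFCF pig (0.0541 and 0.0755).

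HAS2, which forms most hyaluronan in embryonic heart and vessels, is listed under the older pig name SHAS2 (ENSSSCG00000005992). It was at 0.0823, 0.230 and 0.0384 FPKM in the NC pigs and at 0.287, 0.235 and 1.21 FPKM in the HFCF pigs. The groups did not overlap, but the highest NC value and the lowest HFCF value differed only in the third decimal, and the third HFCF pig set the HFCF mean. The means were 0.117 ± 0.10 and 0.578 ± 0.550 FPKM (SD, n = 3 each), and the log2 fold change of 1.45 had a 95% interval of -0.03 to 2.93 and an adjusted p of 0.124 in limma. HAS2 was called in none of the 14 alternatives in which it was tested.

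HAS3 (ENSSSCG00000049263) was at 0.0477, 0 and 0 FPKM in the NC pigs and at 1.72, 0 and 1.04 FPKM in the HFCF pigs. Apart from HAS2 in the third HFCF pig, no other synthase value in the 6 libraries was as high as HAS3 in the first and the third HFCF pigs, and the second HFCF pig was listed at 0, so the groups overlapped. Its log2 fold change was 2.38 with a 95% interval of -0.07 to 4.82 and an adjusted p of 0.127 in limma. Without the second HFCF pig HAS3 was called, with a log2 fold change of 3.66 and an adjusted p of 0.00783 in limma. No ratio is given, since 2 NC pigs were at 0.

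As a share of the summed FPKM of the 3 synthases, HAS1 held 73.5%, 63.9% and 92.0% in the NC pigs against 3.10%, 8.20% and 6.51% in the HFCF group. HAS1 thus led in every NC pig and in no HFCF pig. In the HFCF pigs the leading synthase was HAS3 in the first (83.0%) and HAS2 in the second and the third (91.8% and 50.2%). The summed FPKM itself was 0.490, 0.637 and 0.479 in the NC pigs and 2.07, 0.255 and 2.41 in the HFCF group, so it overlapped between the groups, with the second HFCF pig lowest of all. How many reads stand behind such small sums is not known.

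**Figure D2:**
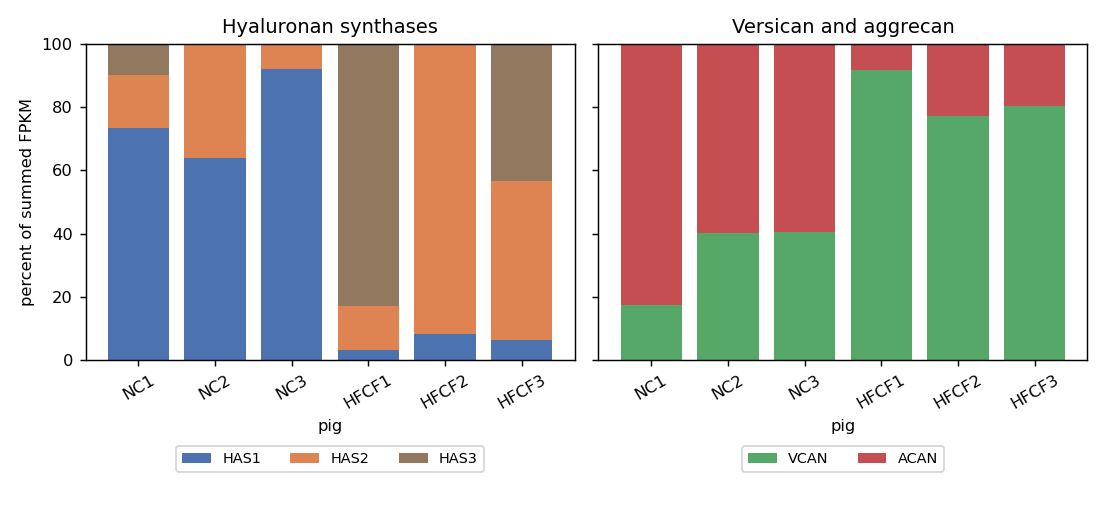
Stacked bars of the percent of summed FPKM in each pig, on the left for HAS1, HAS2 and HAS3 and on the right for VCAN and ACAN. HAS1 takes 63.9% to 92.0% in the NC pigs and at most 8.20% in the HFCF pigs, and ACAN takes 59.6% to 82.6% in the NC pigs and at most 22.7% in the HFCF pigs.

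Both link proteins were separate between the groups and higher in HFCF, as were 36.1% of all tested genes, and HAPLN1 passed the test. HAPLN1 (ENSSSCG00000014137), the cartilage link protein, was at 0.624, 0.448 and 0.735 FPKM in the NC pigs and at 1.41, 2.52 and 1.97 FPKM in the HFCF pigs. The means were 0.602 ± 0.145 and 1.97 ± 0.557 FPKM (SD, n = 3 each), a ratio of 3.27. HAPLN1 rose by 1.54 on the log2 scale, with a standard error of 0.31, a 95% interval of 0.81 to 2.28 and an adjusted p of 0.0125 in limma. The call held in 14 of 15 alternatives and was lost with quantile normalization (log2 fold change 0.88, adjusted p in limma 0.118). HAPLN1 lies next to VCAN in the RefSeq annotation, with no coding gene between them.

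HAPLN3 (ENSSSCG00000030597), a link protein known from smooth muscle of arteries, was at 1.12, 1.48 and 2.18 FPKM in the NC pigs and at 2.54, 3.47 and 2.94 FPKM in the HFCF pigs. The groups did not overlap. The means were 1.59 ± 0.541 and 2.98 ± 0.466 FPKM (SD, n = 3 each), and the log2 fold change of 0.90 had a 95% interval of 0.23 to 1.58 and an adjusted p of 0.0533 in limma. It was called without the third NC pig (adjusted p 0.0315 in limma) and with a filter at a mean FPKM of 1 (0.0476), and in none of the other 13 alternatives. The log2 fold change of HAPLN3 was 0.56 after median-ratio scaling and 0.31 after quantile normalization (adjusted p in limma 0.171 and 0.46). HAPLN3 overlaps ACAN in the RefSeq annotation, and whether the counting used strand is not given in the sources used here. Of the summed FPKM of both link proteins, HAPLN3 held 64.1% to 76.8% in the NC pigs and 57.9% to 64.4% in the HFCF pigs, ranges that overlapped.

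TNFAIP6 (ENSSSCG00000023716) was at 2.01, 3.38 and 7.19 FPKM in the NC pigs and at 8.11, 6.65 and 7.16 FPKM in the HFCF pigs. The third NC pig was as high as the HFCF pigs, and the other NC pigs lay below all of them. The means were 4.19 ± 2.68 and 7.31 ± 0.739 FPKM (SD, n = 3 each), and the log2 fold change of 0.97 had a 95% interval of -0.02 to 1.96 and an adjusted p of 0.126 in limma. Without the third NC pig TNFAIP6 was called, with a log2 fold change of 1.44 and an adjusted p of 0.0183 in limma.

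CD44 (ENSSSCG00000013297), which leukocytes and smooth muscle both carry, was the second most abundant of the 10 genes on either diet. It was at 16.1, 17.9 and 21.4 FPKM in the NC pigs and at 25.1, 24.5 and 20.8 FPKM in the HFCF pigs. The groups overlapped, since the third NC pig lay above the third HFCF pig. The means were 18.4 ± 2.70 and 23.5 ± 2.30 FPKM (SD, n = 3 each), and the log2 fold change of 0.35 had a 95% interval of -0.03 to 0.73 and an adjusted p of 0.145 in limma. It stood 0.03 above the median of all tested genes, and after median-ratio scaling its sign turned (-0.0037, adjusted p in limma 0.988). The deposited values are summed over 8 transcripts of CD44, so its splice variants were not separated.

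CSPG4 (NG2), a membrane chondroitin sulfate proteoglycan of pericytes and smooth muscle, was by level the first of the 10 genes in both groups. CSPG4 (ENSSSCG00000001873) was at 143, 107 and 158 FPKM in the NC pigs and at 29.8, 46.4 and 54.1 FPKM in the HFCF pigs. The lowest NC value was above the highest HFCF value, and the first HFCF pig was the lowest. The means were 136 ± 26.5 and 43.4 ± 12.4 FPKM (SD, n = 3 each), a 3.13-fold higher mean in NC. CSPG4 fell by 1.67 on the log2 scale, with a standard error of 0.26, a 95% interval of -2.28 to -1.06 and an adjusted p of 0.00532 in limma. Its call held in 15 of 15 alternatives, with log2 fold changes of -2.02 to -1.42, and without the first HFCF pig it was -1.42.

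Markers of the cells that carry CSPG4 moved with it in part. Contractile smooth muscle markers fell in 7 of 10, as given above, against 6.16% of all tested genes called lower. Of 8 pericyte markers 1 fell (MCAM, an adhesion molecule that smooth muscle also carries, log2 fold change -1.98), and their sum was 1053 to 1532 FPKM in the NC pigs and 518 to 793 FPKM in the HFCF pigs. PDGFRB, the receptor that marks pericytes, had a log2 fold change of -0.13 and an adjusted p of 0.610 in limma. As a percentage of the level of MYH11, the smooth muscle myosin, CSPG4 was at 6.49, 5.81 and 7.39 in the NC pigs and at 3.62, 5.02 and 4.46 in the HFCF pigs. As a percentage of the summed contractile markers it was at 0.598, 0.559 and 0.960 in the NC pigs and at 0.356, 0.474 and 0.406 in the HFCF pigs. Neither ratio overlapped between the groups. Both ratios were chosen after the values had been seen, and the part of smooth muscle content in the result was not tested.

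Among all tested genes 48.2% had groups that did not overlap. The values of 4 of the 10 genes did not overlap and were higher in HFCF (VCAN, HAS2, HAPLN1 and HAPLN3), against 36.1% of tested genes, and those of 2 did not overlap and were lower (HAS1 and CSPG4), against 12.1% of tested genes. Relative to the median of all tested genes, the log2 fold change was 1.89 for VCAN, 1.22 for HAPLN1, -1.86 for HAS1 and -1.99 for CSPG4. HAS1 passed the filter only through the NC pigs, so its -1.86 and the count of 2 lower rest in part on that filter. The median log2 fold change over the 10 genes was 0.94, beside 0.32 over all tested genes. The 12 macrophage markers rose in the same libraries in which VCAN and HAPLN1 rose, and the part of macrophage content in the results was not tested. The NC pigs spread most in ACAN, HAS2 and TNFAIP6 among the genes measured in every library, and the HFCF pigs in HAS1 and HAS2.

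**Figure D3:**
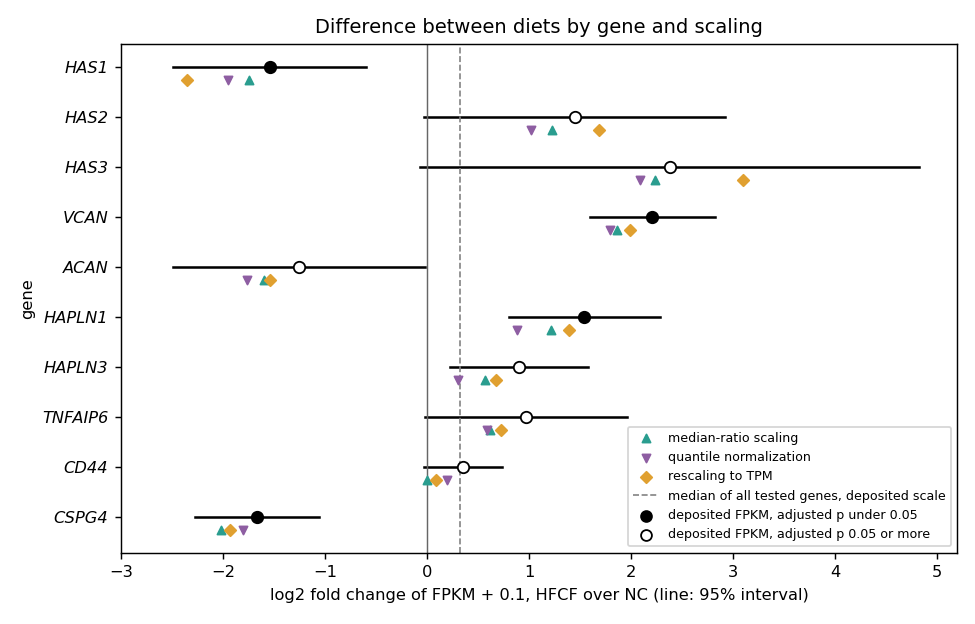
Log2 fold change (HFCF over NC) of FPKM + 0.1 for each of the 10 genes with its 95% interval, filled where the adjusted p was under 0.05, with the values after median-ratio scaling, quantile normalization and rescaling to TPM below it and a dashed line at 0.32, the median of all tested genes. VCAN (2.21) and HAPLN1 (1.54) lie to the right and CSPG4 (-1.67) and HAS1 (-1.54) to the left under each scaling, HAPLN1 loses its call with quantile normalization, and CD44 turns from 0.35 to -0.0037 with median-ratio scaling.

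The genes whose pattern over the 6 libraries was most like that of each member were found by the root-mean-square difference in log2(FPKM + 0.1), centred per gene, among 9582 genes that had their own symbol and averaged 1 FPKM or more. For CSPG4 these were FLNA (filamin A, difference 0.136) and TNS1 (tensin 1, 0.159), which both link actin to the membrane. FLNA was at 2105 to 2806 FPKM in the NC pigs and at 680 to 1175 FPKM in the HFCF pigs. For VCAN they were SMIM15 (0.176) and SMARCAD1 (0.177), and for HAPLN1 they were ZNF579 (0.148) and SERPINE2 (0.162), a secreted protease inhibitor. For ACAN the nearest were CROCC2 (0.183) and PHGDH (0.368), the first enzyme of serine synthesis, for HAPLN3 ITFG1 (0.0997) and GBGT1 (0.105), for CD44 UBQLN2 (0.0386) and OSGIN2 (0.0397), and for TNFAIP6 WDFY1 (0.176) and PARP11 (0.179). These likenesses rest on 6 libraries that share the diet split and are descriptions.

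Around the 10 genes, 6 lists of other genes of hyaluronan and chondroitin sulfate metabolism were read from the same fit. Of 86 listed genes in the table, 77 were tested, and 18 were called higher and 9 lower, with a median log2 fold change of 0.04. Those shares stood beside 22.8% and 6.16% of all tested genes. After median-ratio scaling the split was 10 higher and 14 lower. Without the first HFCF pig it was 13 higher and 7 lower.

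Genes that degrade or clear hyaluronan split in direction, with the abundant hyaluronidases lower and the scavenger receptor STAB1 and lysosomal enzymes among the genes that were higher. Of 11 tested, 5 were called higher and 3 lower (median 0.77), against 22.8% and 6.16% of all tested genes. HYAL1, the lysosomal hyaluronidase, was at 22.9, 25.8 and 26.8 FPKM in the NC pigs and at 16.9, 10.8 and 13.7 FPKM in the HFCF pigs, without overlap. HYAL2, the hyaluronidase anchored at the cell surface, was at 66.9, 83.1 and 31.1 FPKM in the NC pigs and at 21.3, 25.7 and 21.5 FPKM in the HFCF pigs. The third NC pig was nearest to the HFCF pigs, and the groups were separate. The log2 fold changes were -0.88 for HYAL1 (adjusted p in limma 0.0159, kept in 14 of 15 alternatives), -1.29 for HYAL2 (0.0322, kept in 8 of 15) and -1.41 for HYAL3 (0.0238, kept in 10 of 14). The summed FPKM of HYAL1 and HYAL2 was 58.0 to 108.8 in the NC pigs and 35.2 to 38.3 in the HFCF pigs.

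CEMIP, a protein that depolymerises hyaluronan independently of the HYAL family, rose by 1.87 on the log2 scale, from 0.0963 ± 0.0639 to 0.599 ± 0.143 FPKM (SD, n = 3 each, adjusted p in limma 0.0157, kept in 11 of 14 alternatives). HMMR, a hyaluronan receptor that is also a mitotic spindle protein, rose by 2.04 (adjusted p in limma 0.0135), from 0.0615 ± 0.0223 to 0.603 ± 0.327 FPKM (SD, n = 3 each). CEMIP and HMMR averaged under 0.1 FPKM in the NC pigs and passed the filter only through the HFCF pigs, in which they were high, so their calls and the count of 5 rest in part on that filter. STAB1, a scavenger receptor of macrophages and sinusoidal endothelium, rose by 1.25 (adjusted p in limma 0.0110), and GUSB, a lysosomal enzyme that trims the oligosaccharides, by 1.03 (0.0187, kept in 9 of 15). STAB2, also on this list, was not found among the deposited genes and could not be read. The fifth was HEXA, a lysosomal hexosaminidase (0.89, adjusted p in limma 0.00751), named after its values had been seen. These lists were read in libraries in which the macrophage markers rose, and that part was not tested.

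Genes that supply the UDP-sugars, or carry them or the sulfate donor into the Golgi, were called in 2 of 10, both higher (median 0.40). The share called higher over all tested genes was 22.8%. UGP2, which makes UDP-glucose, rose by 0.85 (adjusted p in limma 0.0226, kept in 8 of 15 alternatives), and SLC35D2, a nucleotide sugar transporter, by 0.93 (0.0121, kept in 13 of 15). UGDH, the enzyme that forms the UDP-glucuronate used by the synthases, had a log2 fold change of 0.58 and an adjusted p of 0.0870 in limma. UGDH was singled out after its values had been seen.

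Of the other lecticans, link proteins and matrix partners of versican, 12 of 18 were tested, 0 were called higher and 1 lower (median -0.17). Over all tested genes 22.8% were called higher and 6.16% lower. The gene that fell was TNC, tenascin C, which binds the C-terminal domain of lecticans. TNC was at 237, 157 and 236 FPKM in the NC pigs and at 50.8, 99.1 and 64.7 FPKM in the HFCF pigs. The groups were separate, and its log2 fold change of -1.58 (adjusted p in limma 0.00836) kept its call in 15 of 15 alternatives.

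Chondroitin sulfate chain synthesis was called higher in 5 and lower in 1 of 25 tested genes (median 0.04). Those counts lay near the shares over all tested genes, 22.8% and 6.16%. CSGALNACT2, which starts the chain on its linker, rose by 1.65 (adjusted p in limma 0.0132), from 3.02 ± 1.03 to 9.74 ± 3.78 FPKM (SD, n = 3 each), with its call kept in 15 of 15 alternatives. CSGALNACT1, an enzyme of the same step named after its values had been seen, was not called (-0.76, adjusted p in limma 0.187). PAPSS2, which makes the sulfate donor, rose by 1.06 (adjusted p in limma 0.0175, kept in 11 of 15). DSEL, a dermatan sulfate epimerase, rose by 1.14 and CHST12, a chondroitin sulfotransferase, by 0.75, with calls kept in 4 of 14 and 6 of 15 alternatives. The remaining one was B3GAT3, an enzyme of the linker (0.55, kept in 3 of 15), named after its values had been seen. The gene that fell was CHPF, a chondroitin polymerising factor, from 26.7 ± 2.06 to 13 ± 4.66 FPKM (SD, n = 3 each), by 1.11 on the log2 scale (adjusted p in limma 0.0290, kept in 12 of 15).

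The proteases that cut versican and aggrecan were called lower in 2 of 7 tested genes and higher in 0 (median -0.47). All tested genes were called lower in 6.16% and higher in 22.8%. ADAMTS4 was at 7.64, 15.4 and 20.9 FPKM in the NC pigs and at 6.04, 3.45 and 4.12 FPKM in the HFCF pigs. ADAMTS8 was at 50.4, 86.9 and 90.8 FPKM in the NC pigs and at 16.2, 12.9 and 45.2 FPKM in the HFCF pigs. Both were separate between the groups, by a narrow gap each, and fell by 1.59 and 1.79 on the log2 scale (adjusted p in limma 0.0232 and 0.0309), with calls kept in 10 and 9 of 15 alternatives. ADAMTS1 and ADAMTS5, singled out after their values had been seen as well-known versicanases and aggrecanases, had log2 fold changes of 0.05 and -0.13 (adjusted p in limma 0.964 and 0.914).

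Partners and sheddases of CD44 held the widest changes of the 6 lists, although CD44 itself was not called. Of 12 tested, 6 were called higher and 2 lower (median 0.80), against 22.8% and 6.16% of all tested genes. SPP1, osteopontin, a ligand of CD44, was at 4.41, 3.00 and 17.2 FPKM in the NC pigs and at 677.8, 278.1 and 322.7 FPKM in the HFCF pigs. MMP9, a gelatinase that docks on CD44, was at 0.131, 0 and 0.410 FPKM in the NC pigs and at 31.1, 8.38 and 2.17 FPKM in the HFCF pigs. Both were separate between the groups and highest in the first HFCF pig, with log2 fold changes of 5.98 and 5.21 (adjusted p in limma 0.00179 and 0.0102). SRGN, serglycin, the chondroitin sulfate proteoglycan of blood cell granules, rose by 3.14 (adjusted p in limma 0.00151) and ADAM10, which sheds CD44, by 1.99 (0.00311), from 1.0 ± 0.190 to 4.30 ± 1.09 FPKM (SD, n = 3 each). CD74 (1.53) and RDX, radixin (1.08, kept in 3 of 15 alternatives), were the others that rose, named after their values had been seen.

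MSN, moesin, which ties the tail of CD44 to actin, fell by 1.26 (adjusted p in limma 0.0199, kept in 12 of 15 alternatives), from 145 ± 25.3 to 63.0 ± 21.4 FPKM (SD, n = 3 each). NF2, merlin, a relative of moesin that also binds that tail, fell by 0.85 (adjusted p in limma 0.00672, kept in 15 of 15). Several genes of this list, SPP1, MMP9, SRGN and CD74 among them, are abundant in macrophages, whose markers rose in the same libraries, and that part was not tested.

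**Figure D4:**
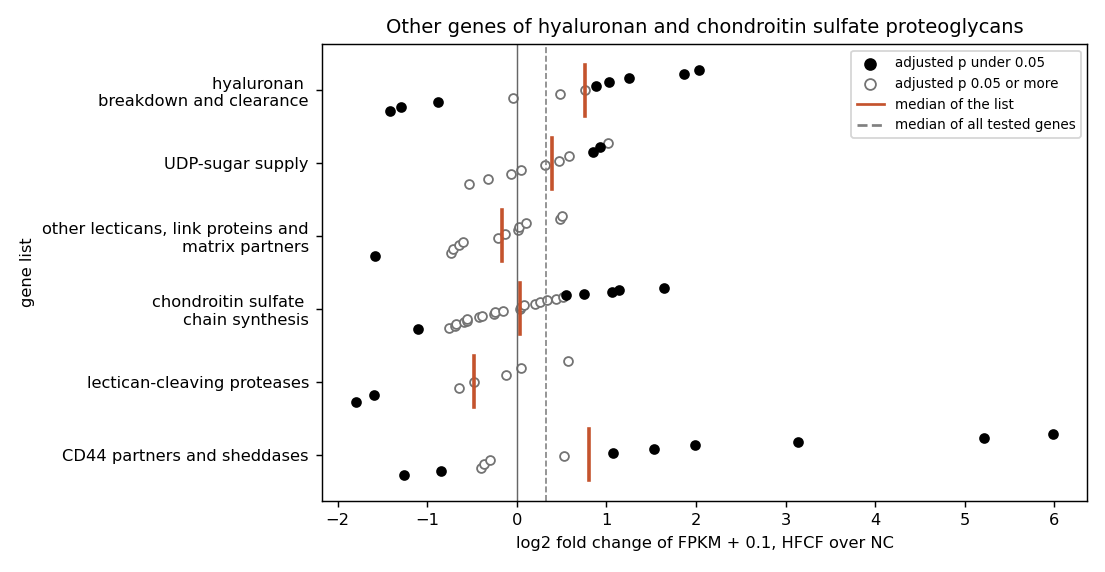
Log2 fold change (HFCF over NC) of FPKM + 0.1 for the 77 tested genes of the 6 lists, with 1 point per gene, filled where the adjusted p was under 0.05, a bar at the median of each list and a dashed line at 0.32, the median of all tested genes. The list medians run from -0.47 (lectican-cleaving proteases) to 0.80 (CD44 partners and sheddases), and SPP1 (5.98) and MMP9 (5.21) are the points farthest to the right.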

How the data were processed

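Total RNA from the abdominal aorta of 3 NC and 3 HFCF pigs was sequenced as paired-end reads, with 1 library per pig. Per the methods and the submitters' processing notes, the authors trimmed reads with cutadapt 1.9, checked them with FastQC, aligned them with HISAT2 to a pig genome, and used StringTie for assembly and quantification. The FPKM values deposited by the authors for 30477 genes were used as they stand. The methods name an earlier pig build than the RefSeq annotation (Sscrofa11.1) used here for names and gene neighbours, so no coordinates are given. Values of 0.0001 FPKM were read as 0, which 8661 genes had in all 6 libraries.

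Genes whose mean reached 0.1 FPKM were tested as log2(FPKM + 0.1) with limma 3.58.1 in R 4.3.3, fitting diet alone, with a mean-variance trend in eBayes, and p-values were adjusted by Benjamini-Hochberg over every tested gene. The scripts were tested on simulated data. The methods give fold and p limits (above 2 or below 0.5, unadjusted p under 0.05) but name no test for them.

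HAS2 was matched by gene ID through a table of gene names, and the other 9 genes by symbol. The 10 genes, the 6 lists and the marker lists (also T cells, B and plasma cells, neutrophils, endothelium, fibroblasts, mesothelium, adipocytes, Schwann cells, skeletal muscle and red blood cells) were chosen with earlier results of these data known. Of each pathway list, the 4 called genes with the largest log2 fold change in each direction were named. For each member with a mean FPKM of at least 1, the 2 genes nearest in pattern were named.

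Alternatives were pseudocounts of 1 and 0.01, no filter, a filter at a mean of 1 FPKM, median-ratio scaling, quantile normalization, TPM, eBayes without a trend, a replicate block and each library left out in turn. Precision was taken from the spread among pigs, since the depth is not known. Lipidomics, staining, qRT-PCR and cell culture were not analysed here.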

Additional observations from a re-analysis of the deposited data

How the results depend on the processing

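VCAN and CSPG4 kept their calls in all 15 alternatives run for each. Over the 10 genes and their alternatives, 135 of 147 values kept direction and call, 7 lost a call (HAS1 in 6 and HAPLN1 in 1), 4 gained one and 1 turned in direction. The one that turned was CD44 with median-ratio scaling (-0.003686). Of the 10 genes, 1 was called higher with quantile normalization, and 1 was called lower with a mean FPKM of at least 1, a filter that removes all 3 synthases. With each library left out in turn, 2 to 4 of the 10 genes were called higher (4 without the third NC pig, which adds HAPLN3 and TNFAIP6) and 1 to 2 lower.

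The replicate numbers showed no sign of pairing the pigs. Deviations of pigs with the same number correlated at 0.021, -0.079 and -0.072, and no pig correlated best with its own number. Correlations so near 0 do not settle how the pigs were numbered. With a replicate block 2 of the 10 genes were called higher and 1 lower (HAS1 lost its call, adjusted p 0.0641 in limma).

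For the 6 pathway lists, 10 genes were called higher with median-ratio scaling, 10 with quantile normalization and 10 with a replicate block, and 14 lower with median-ratio scaling. Leaving out 1 library gave 11 to 18 higher (11 without the first NC pig and 11 without the second HFCF pig) and 4 to 7 lower (4 without the first or the second NC pig, 5 without the third NC or the second HFCF pig). Of 341 values of the named pathway genes, 271 kept direction and call, 70 lost the call and 0 turned in direction. With 1 HFCF pig left out, the mean share of HAS3 among the synthases in HFCF was 21.6% to 63.2% and that of HAS2 was 32.0% to 71.0%, against 42.1% and 52.0% with all 3. Where a call was lost the cause was not tested.

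Over all tested genes, 1748 were called higher and 1782 lower with quantile normalization, 2229 and 1527 with TPM, 2232 and 540 with a replicate block, and 1979 and 442 without the first NC pig. Without the second NC pig 542 were called lower. The number of reads behind each value is not known, and the 3 synthases had the lowest levels of the 10 genes.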

Other observations

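The annotation deposited with the values marks 20 genes with the Gene Ontology term for binding of hyaluronic acid, a list added after the values had been seen. Of these, 16 were tested, and 6 were called higher in HFCF (VCAN, HAPLN1, CEMIP, HMMR, STAB1 and C1QBP) and 1 lower (HYAL2). Called higher and lower among all tested genes were 22.8% and 6.16%. The 16 log2 fold changes had a median of 0.75, beside 0.32 over all tested genes. CEMIP and HMMR passed the filter only through the HFCF pigs, so the count of 6 rests in part on that filter. Apart from C1QBP, the called genes were already described above, so their calls are not new evidence. C1QBP, a mitochondrial protein that also binds C1q, was at 6.0 ± 1.21 FPKM in NC and 10.3 ± 2.10 FPKM in HFCF (SD, n = 3 each), with an adjusted p of 0.0428 in limma that was kept in 3 of 15 alternatives. SUSD5 was at 11.9, 17.7 and 44.6 FPKM in the NC pigs and at 11.5, 8.93 and 12.1 FPKM in the HFCF pigs, with the third NC pig far above the rest and an adjusted p of 0.149 in limma. LAYN, layilin, a membrane receptor of hyaluronan, had a log2 fold change of 0.61 and an adjusted p of 0.142 in limma. LYVE1, the hyaluronan receptor of lymphatic vessels and of some resident macrophages, had a log2 fold change of 0.48 and an adjusted p of 0.709 in limma.

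Marker lists of other cell types of the vessel wall and its surroundings gave these counts of tested genes called higher and lower in HFCF. The shares over all tested genes were 22.8% and 6.16%. Of 8 T cell markers 3 were higher (CD2, CD8A and TRAT1) and 0 lower, of 6 B and plasma cell markers 1 (CD79A) and 0, and of 3 neutrophil markers 1 (CSF3R) and 0. Without overlap and higher in HFCF were 7 T cell, 3 B and plasma cell and 1 neutrophil markers, against 36.1% of all tested genes. The summed FPKM of the T cell markers was 1.06 to 1.38 in the NC pigs and 3.68 to 18.6 in the HFCF pigs. That of the B and plasma cell markers was 6.91 to 11.4 and 35.9 to 54.0, and that of the neutrophil markers 0.474 to 2.21 and 5.40 to 94.4. Of 8 endothelial markers 0 were called in either direction, and the same held for 4 red blood cell, 4 skeletal muscle and 5 Schwann cell markers. Of 9 fibroblast markers 1 was higher (LUM, lumican) and 0 lower, of 7 adipocyte markers 0 and 1 (PLIN4), and of 2 mesothelial markers 0 and 1 (WT1). The summed FPKM of the fibroblast markers was 3713 to 6865 in the NC pigs and 3752 to 6787 in the HFCF pigs.

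The 13 mitochondrial mRNAs made up 4.55% to 6.78% of the summed FPKM in the NC pigs and 8.79% to 13.21% in the HFCF pigs.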
